A study of Rattus norvegicus with 325 samples.

Results

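Skeletal muscle fibres are slow and oxidative or fast and glycolytic, and a small set of transcription factors is known to help set and hold these states. The factors described here are Sox6, Tbx15, Six4, Tead1 and Nfatc1, chosen by gene symbol from a list of 8 that also named Eya1, Tead4 and Mef2c, which were not analysed here. The 5 genes measured were therefore 5 of 17315 distinct symbols in the count tables, and each had a single line with at least 193 counts in every library. RNA was sequenced from the soleus, diaphragm, gastrocnemius and tibialis anterior of male rats of the outbred Sprague Dawley stock, and the labels name no genetic change or treatment. The youngest rats were 6 months old, followed by 9, 12 and 18 months, then 21, 24 and lastly 27 months. There were 325 libraries, with 9 to 13 in each of 28 groups of 1 muscle and 1 age. The 84 soleus, 83 diaphragm, 73 gastrocnemius and 85 tibialis anterior libraries were sequenced to between 17.6 M and 85.3 M counts (median library 31.9 M). The libraries of a group came from different animals, but the labels do not tie libraries of different muscles to the same animal.

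Sox6 is a factor of the SoxD family known to repress slow fibre genes in fast fibres. Six4 is a homeobox factor that works with Eya coactivators to switch on the fast glycolytic programme, and Tbx15 is a T-box factor known to favour glycolytic fibres. Tead1 binds the MCAT element found in many muscle gene promoters, with cofactors such as Yap1 and the Vgll proteins. Nfatc1 is moved into the nucleus by the phosphatase calcineurin during sustained nerve activity and is known to favour slow fibre genes, whereas class IIa deacetylases such as Hdac4 hold Mef2 factors silent.

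The 3 factors whose levels were lower in the soleus than in the diaphragm, gastrocnemius and tibialis anterior at 6 months are shown with the 250 bases before their annotated start, since genes with a shared pattern invite a look at their promoters. RefSeq sequences of build GRCr8, a later build than that of the counts, held these windows for Sox6, Tbx15 and Six4, at chr1:179665372-179665621 on the minus strand, chr2:189265123-189265372 on the plus strand and chr6:97551873-97552122 on the minus strand. Capitals mark matches to any of the 5 motif cores searched on both strands, which were AACAAT for Sox factors, TCAGGTT (MEF3) for Six4 and its relatives, AGGTGT for T-box factors, CATTCC (MCAT) for Tead factors and GGAAA for NFAT. No match overlapped another.
Sox6: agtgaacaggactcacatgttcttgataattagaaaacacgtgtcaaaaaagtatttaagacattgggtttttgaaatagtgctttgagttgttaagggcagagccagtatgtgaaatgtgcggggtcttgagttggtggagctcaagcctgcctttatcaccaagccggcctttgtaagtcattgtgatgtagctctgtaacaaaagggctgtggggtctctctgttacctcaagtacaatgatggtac
Tbx15: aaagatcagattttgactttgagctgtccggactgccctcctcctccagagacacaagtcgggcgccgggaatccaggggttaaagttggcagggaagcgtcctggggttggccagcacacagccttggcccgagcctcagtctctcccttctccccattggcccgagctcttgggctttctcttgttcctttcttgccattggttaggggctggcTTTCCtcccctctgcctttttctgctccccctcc
Six4: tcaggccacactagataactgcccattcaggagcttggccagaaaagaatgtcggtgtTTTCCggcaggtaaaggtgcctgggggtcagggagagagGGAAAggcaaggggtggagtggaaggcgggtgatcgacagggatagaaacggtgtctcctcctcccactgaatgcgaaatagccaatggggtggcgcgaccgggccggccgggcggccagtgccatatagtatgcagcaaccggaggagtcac
The NFAT core was present 1 time for Tbx15, 2 times for Six4 and not for Sox6, and no other core was found in the 3 windows. Among 33469 rat promoter windows of the same length, 56.9% held the NFAT core, 10.3% the Sox core, 3.3% the MEF3 core, 11.6% the T-box core and 12.1% the MCAT core. These matches are letters in a window and were not measured as binding.

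The muscle labels were checked with Myh7 and Myh4, which encode the slow and the fastest adult myosin heavy chain. Myh4 was at 4.40 to 314 CPM (scaled counts relative to library size) in the soleus, at 197 to 15279 in the diaphragm, at 10273 to 72275 in the gastrocnemius and at 10443 to 108550 in the tibialis anterior. Myh7 was at 17823 to 66301 CPM in the soleus and at 187 to 5861 in the tibialis anterior. Myh7 exceeded Myh4 in all 84 soleus and 83 diaphragm libraries and in 0 of the 73 gastrocnemius and 85 tibialis anterior libraries. Each group of 1 age was collected on 1 day, and the library numbers of the gastrocnemius form a series of their own, so age and collection day, and gastrocnemius and number series, cannot be told apart. The same holds for the 12-month soleus, diaphragm and tibialis anterior libraries, which all belong to the third number series while their 6-month libraries belong to the second. These are whole-tissue samples, in which fewer fibres of a type and less RNA per fibre cannot be told apart either.

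At 6 months Sox6 separated the 4 muscles most widely of the 5 factors. Its level ran from 7.96 to 13.3 CPM with a median of 8.95 in the 12 soleus libraries, and from 40.8 to 57.9 with a median of 50.4 in the 12 diaphragm libraries. In the 10 gastrocnemius libraries it ran from 104 to 118 CPM with a median of 109.8, and in the 12 tibialis anterior libraries from 119 to 135 with a median of 125. No soleus library reached any library of another muscle. The soleus level was 5.51-fold below the diaphragm (log2 difference -2.46, SE 0.08, adjusted p = 5.78e-98), 12.1-fold below the gastrocnemius (-3.60, SE 0.08, adjusted p = 7.37e-136) and 13.8-fold below the tibialis anterior (-3.78, SE 0.07, adjusted p = 1.47e-145) in limma-voom, with Benjamini-Hochberg adjustment over 12784 genes. The diaphragm lay between, 2.19-fold below the gastrocnemius and 2.50-fold below the tibialis anterior. Gastrocnemius minus tibialis anterior was -0.19 on the log2 scale (adjusted p = 0.00787).

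Tbx15 followed the same order at 6 months over a smaller range. The medians were 32.0 CPM in the soleus (29.4 to 39.1), 63.2 in the diaphragm (50.5 to 71.6), 67.4 in the gastrocnemius (55.4 to 76.8) and 89.2 in the tibialis anterior (77.0 to 105). The soleus stood apart from every library of the other muscles. It was 1.90-fold below the diaphragm (log2 difference -0.93, SE 0.06, adjusted p = 2.55e-35) and 2.67-fold below the tibialis anterior (-1.42, SE 0.06, adjusted p = 7.68e-65), and the 95% interval of its difference from the gastrocnemius was -1.13 to -0.87 on the log2 scale (adjusted p = 1.14e-37). Diaphragm and gastrocnemius, neighbours in this order, were not separated (log2 difference -0.07, 95% interval -0.20 to 0.05), and by total-count scaling the diaphragm was the higher of the pair by 0.37.

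Six4, the other factor of the fast programme, differed less. It had medians of 175 CPM in the soleus (150.5 to 206), 226 in the diaphragm (148 to 258), 214 in the gastrocnemius (178 to 241) and 253 in the tibialis anterior (234 to 294) at 6 months. The soleus minus diaphragm, gastrocnemius and tibialis anterior differences were -0.33, -0.26 and -0.55 on the log2 scale (adjusted p = 7.54e-08, 2.46e-05 and 9.74e-19), although the difference from the gastrocnemius turned to 0.14 in the opposite direction with total-count scaling. Only the 6-month soleus and tibialis anterior libraries did not overlap. None of these differences passed 1.5-fold.

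Tead1 and Nfatc1 had another order. Tead1 medians at 6 months were 124 CPM in the diaphragm (107 to 134), 151 in the soleus (135 to 163), 173 in the gastrocnemius (140 to 199) and 177 in the tibialis anterior (170.3 to 190.3). The soleus exceeded the diaphragm by 0.29 on the log2 scale (adjusted p = 3.79e-06) under either scaling. Soleus minus gastrocnemius and soleus minus tibialis anterior were -0.19 and -0.25, differences that turned to 0.21 and 0.16 in the opposite direction with total-count scaling. Nfatc1 was at 179 CPM in the soleus (138 to 201), 125 in the diaphragm (109.8 to 143), 164 in the gastrocnemius (133 to 205) and 159 in the tibialis anterior (140 to 173). The slow soleus was thus above the diaphragm by 0.47 (adjusted p = 5.06e-11) and above the tibialis anterior by 0.14 (adjusted p = 0.0413), while soleus and gastrocnemius were not separated with TMM scaling (difference 0.04, 95% interval -0.10 to 0.17). With total-count scaling the soleus was above the gastrocnemius by 0.44 (adjusted p = 5.16e-13) and above the tibialis anterior by 0.55. For Nfatc1 the diaphragm minus gastrocnemius and minus tibialis anterior differences were -0.43 and -0.33, and total-count scaling turned these to 0.0047 and 0.12 in the opposite direction.

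A factor was called different where adjusted p was under 0.05 and the difference over 1.5-fold. Of the 5 factors, 2 were called between soleus and diaphragm (Sox6 and Tbx15), where 23.9% of all genes were called. The same pair of genes was called between soleus and gastrocnemius, with 45.4% of all genes, and between soleus and tibialis anterior, with 42.9%. Sox6 alone was called between diaphragm and gastrocnemius (37.3% of all genes) and between diaphragm and tibialis anterior (35.1%). Between gastrocnemius and tibialis anterior 0 were called in limma-voom and 0 in edgeR, with 17.3% of all genes called, while 3 passed an unadjusted p under 0.05. Lower in the soleus than in each of the other 3 muscles past this threshold were 5.78% of all genes, and Sox6 and Tbx15 are among them. Libraries did not overlap for 3 of 5 factors between soleus and diaphragm (20.6% of all genes), 2 between soleus and gastrocnemius (36.9%), and 4 between soleus and tibialis anterior (41.5%).

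**Figure D1:**
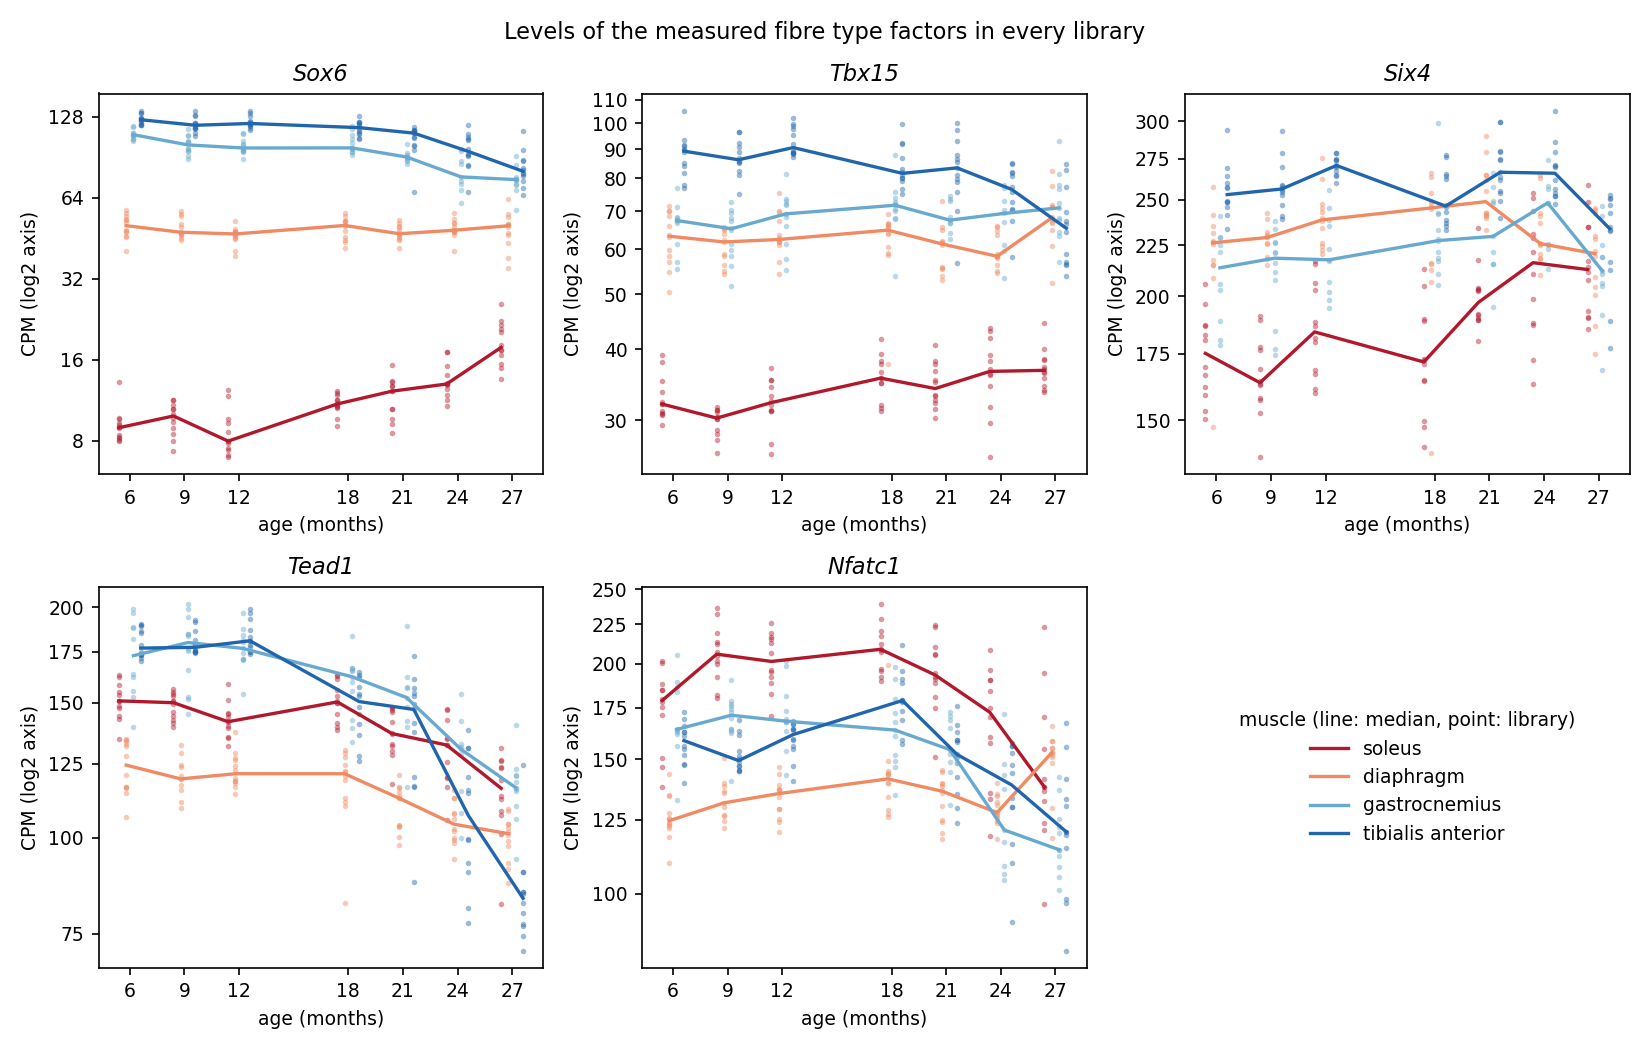
Level of Sox6, Tbx15, Six4, Tead1 and Nfatc1 in each of 325 libraries (points) with the group median (lines) in CPM on a log2 axis, by age in months and muscle, with the muscles set slightly apart at each age. The soleus rises in Sox6 from a median of 8.95 CPM at 6 months to 17.8 at 27 months while gastrocnemius and tibialis anterior fall, and Tead1 falls in the 4 muscles.

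With age, Sox6 moved in opposite directions in the slow and the fast hind limb muscles. In the soleus it ran from 13.5 to 25.9 CPM with a median of 17.8 at 27 months, against 7.96 to 13.3 at 6 months, and all 12 old libraries lay above every young one. Its rise was 2.05-fold (log2 change 1.03, SE 0.09, adjusted p = 2.47e-17, mean log2 CPM 3.18 ± 0.20 at 6 months and 4.20 ± 0.27 at 27 months, SD, n = 12 each). The change had passed the test from 18 months on, at 0.27, 0.35 and 0.57 at 18, 21 and 24 months, with overlapping libraries at each of these ages. It was classed as a late rise, with the midpoint of the fitted logistic curve at 25.25 months.

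In the tibialis anterior Sox6 was at 65.3 to 114 CPM with a median of 80.3 at 27 months, below every one of the 6-month libraries. The log2 change was -0.61 (SE 0.06, adjusted p = 2.31e-14), just past 1.5-fold. Without the 27-month replicate 6 it was -0.58 and no longer past that threshold, and with total-count scaling it was -0.29 (adjusted p = 1.86e-10). The gastrocnemius fell by 0.56 (SE 0.06, adjusted p = 2.23e-13), from a median of 109.8 to 74.8 CPM and again without overlap. This change was -0.28 with total-count scaling (adjusted p = 9.83e-08), and without the 27-month replicate 1 it was -0.59 and past 1.5-fold. In the diaphragm the 27-month libraries spread from 35.2 to 63.3 CPM around a median of 50.4, the median seen at 6 months, and the change of -0.09 did not pass the test (adjusted p = 0.191). Tibialis anterior libraries were already lower at 21 months (-0.25, adjusted p = 0.00138), as were gastrocnemius libraries (-0.28, adjusted p = 0.00044).

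The muscles therefore drew closer in Sox6. The distance between tibialis anterior and soleus was 13.8-fold at 6 months, 14.3-fold at 12, 10.6-fold at 18, 9.05-fold at 21, 7.13-fold at 24 and 4.45-fold at 27 months. The order tibialis anterior, gastrocnemius, diaphragm and soleus was the same at the 7 ages. At 27 months gastrocnemius minus tibialis anterior did not pass the test in limma-voom with TMM scaling (log2 difference -0.14, adjusted p = 0.0546). With total-count scaling it was -0.17 and passed (adjusted p = 0.00697). The age changes of gastrocnemius and tibialis anterior were not separated (difference 0.05, adjusted p = 0.758). The change from 6 to 27 months in the soleus exceeded that in the tibialis anterior by 1.63 (SE 0.10, adjusted p = 7.01e-40), that in the gastrocnemius by 1.58 and that in the diaphragm by 1.07 in the tests of the difference itself. Higher in the soleus and lower in both the gastrocnemius and tibialis anterior at 27 months, at an adjusted p under 0.05, were 195 of 11517 genes, 1.69%, and Sox6 is 1 of them.

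**Figure D2:**
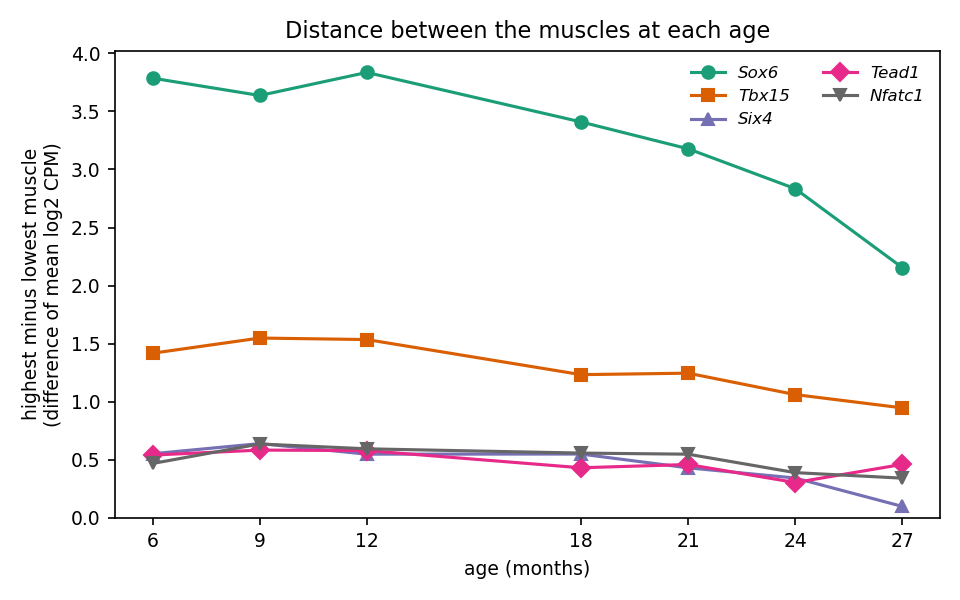
Distance between the muscle with the highest and the muscle with the lowest mean level at each age, as a difference of mean log2 CPM, for each of the 5 factors. Sox6 starts at 3.79 and ends at 2.16, and Six4 starts at 0.55 and ends at 0.10.

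Fast and slow fibre genes moved beside Sox6. In the soleus 10 of 12 fast fibre genes were called higher at 27 months, where 15.0% of all genes were called in either direction. The median log2 change of this list was 2.45, against 0.02 over all genes. All 10 slow fibre genes passed the test as lower, beside 26.4% of all genes, with a median of -0.39. Myh4 in the soleus rose from a median of 8.39 CPM to 97.7, below every library of the other muscles at these ages. In the gastrocnemius 4 and in the tibialis anterior 5 of the 12 fast genes were called lower, beside 22.8% and 27.6% of all genes called in either direction. The list medians were -0.52 and -0.45, and in the diaphragm the list median was 0.05. Myh4 was called higher there in limma-voom (1.37), but it was 0.91 and did not pass the test in edgeR (adjusted p = 0.0774), nor did it pass with Bonferroni adjustment. Slow fibre genes passed as higher for 5 of 10 in the diaphragm, for 1 in the gastrocnemius and for 1 in the tibialis anterior. Of all genes 20.3%, 33.2% and 37.7% passed as higher there. As lower passed 2 slow fibre genes in the gastrocnemius and 4 in the tibialis anterior, beside 28.9% and 36.5% of all genes. Summed over the list, fast fibre genes went from a median of 5206 to 10028 CPM in the soleus and from 238533 to 142474 in the tibialis anterior. The part of these fibre type genes in the Sox6 result was not tested.

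**Figure D3:**
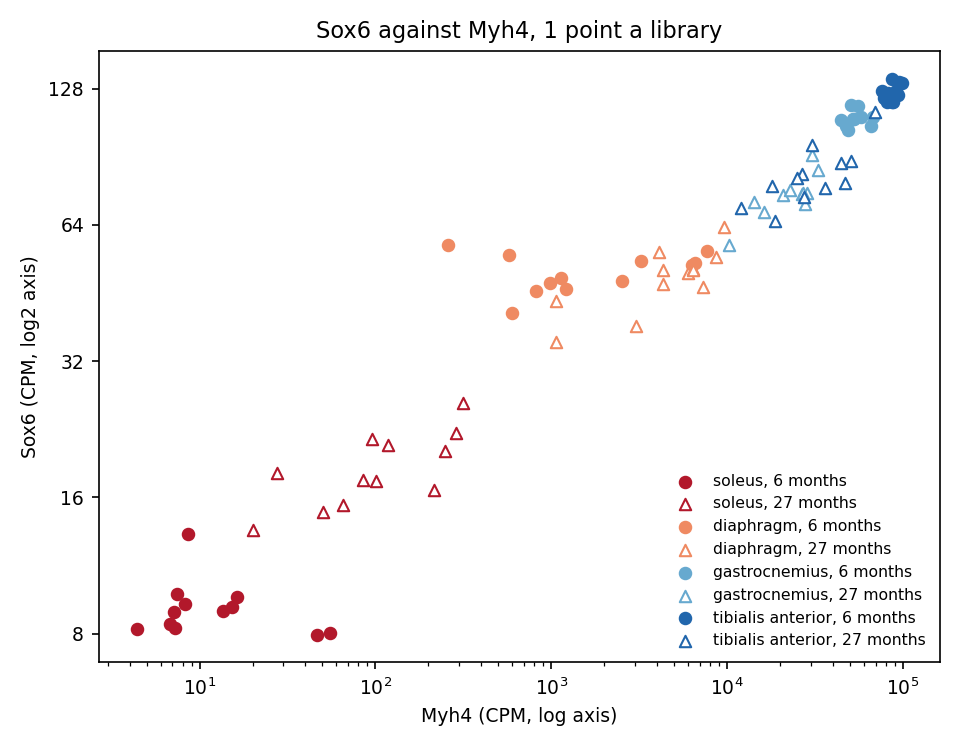
Sox6 (CPM, log2 axis) against Myh4 (CPM, log axis) in each library at 6 months (filled circles) and 27 months (open triangles), coloured by muscle. Soleus libraries move up in both genes with age and tibialis anterior and gastrocnemius libraries move down in both, while diaphragm libraries vary in Myh4 at about the same Sox6 level.

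Among libraries of 1 muscle and 1 age, after removal of the group means, Sox6 and Myh4 were correlated at r = 0.73 over 85 tibialis anterior and 0.75 over 73 gastrocnemius libraries, but at 0.39 over 83 diaphragm and 0.25 over 84 soleus libraries. These libraries share scaling and handling within a group, and no p is given. In the tibialis anterior Sox6 also went with Tead1 (r = 0.80), Nfatc1 (0.70) and Tbx15 (0.67), and each of these 4 went against Chrnd, the acetylcholine receptor subunit that rises in denervated muscle (-0.65, -0.78, -0.48 and -0.57 for Sox6, Tead1, Nfatc1 and Tbx15). The gastrocnemius gave -0.51, -0.49, -0.30 and -0.35 against Chrnd for these factors in the same order, and the diaphragm -0.18, -0.10, -0.03 and -0.23. In the soleus the same pairs gave 0.09 for Sox6 and -0.19 for Tead1 against Chrnd, whereas Tead1 and Nfatc1 went with Myh7 at 0.66 and 0.70.

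Tead1 was the factor that fell in all 4 muscles, and it fell most in the tibialis anterior. There its level was 71.3 to 124 CPM with a median of 83.4 at 27 months, against 170.3 to 190.3 with a median of 177 at 6 months, without overlap. The log2 change was -1.08 (SE 0.07, adjusted p = 1.13e-22), a 2.12-fold fall, and it was already past 1.5-fold at 24 months (-0.75, adjusted p = 2.58e-14) and past the test at 18 months (-0.27, adjusted p = 0.00252). With total-count scaling the change was -0.76 at 27 months and still called, and -0.57 at 24 months and not called.

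In the other muscles the fall of Tead1 was smaller. The gastrocnemius went from a median of 173 to 116 CPM (-0.56, SE 0.07, adjusted p = 6.60e-10), the soleus from 151 to 116 (-0.39, SE 0.05, adjusted p = 8.86e-12) and the diaphragm from 124 to 101 (-0.35, SE 0.05, adjusted p = 1.20e-08), and each fell under every scaling tried. All 12 old soleus libraries were below the lowest young one at 135 CPM. Tead1 was lower at 27 months in the 4 muscles at an adjusted p under 0.05 together with 5.49% of 11517 genes. With TMM scaling the fall was late in soleus, gastrocnemius and tibialis anterior and linear in the diaphragm by the trend classes. With total-count scaling it was linear in the gastrocnemius too. The gastrocnemius value lay near the 1.5-fold line and was past it without the 27-month replicate 1 (-0.59), without the 6-month replicate 4 (-0.61) and with sample quality weights (-0.62).

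The place of the tibialis anterior among the muscles changed in Tead1 with TMM scaling. Its mean was highest at 6, 9 and 12 months, although gastrocnemius and tibialis anterior were not separated at 6 months (difference -0.06, adjusted p = 0.389). It was lowest at 27 months, when soleus, gastrocnemius and diaphragm exceeded it by 0.43 (adjusted p = 3.11e-12), 0.46 and 0.24 on the log2 scale. With total-count scaling the soleus was above the tibialis anterior at both ages, by 0.16 at 6 months (adjusted p = 0.00471) and by 0.68 at 27 months, so the order of that pair at 6 months rests on the scaling. Soleus and gastrocnemius were not separated at 27 months (difference -0.03, 95% interval -0.14 to 0.09, but 0.24 with total-count scaling). The fall in the tibialis anterior exceeded that in the soleus by 0.69 (adjusted p = 1.17e-13) and that in the diaphragm by 0.78 (adjusted p = 4.06e-17), which were called, and that in the gastrocnemius by 0.53 (adjusted p = 1.54e-07), which was under 1.5-fold.

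**Figure D4:**
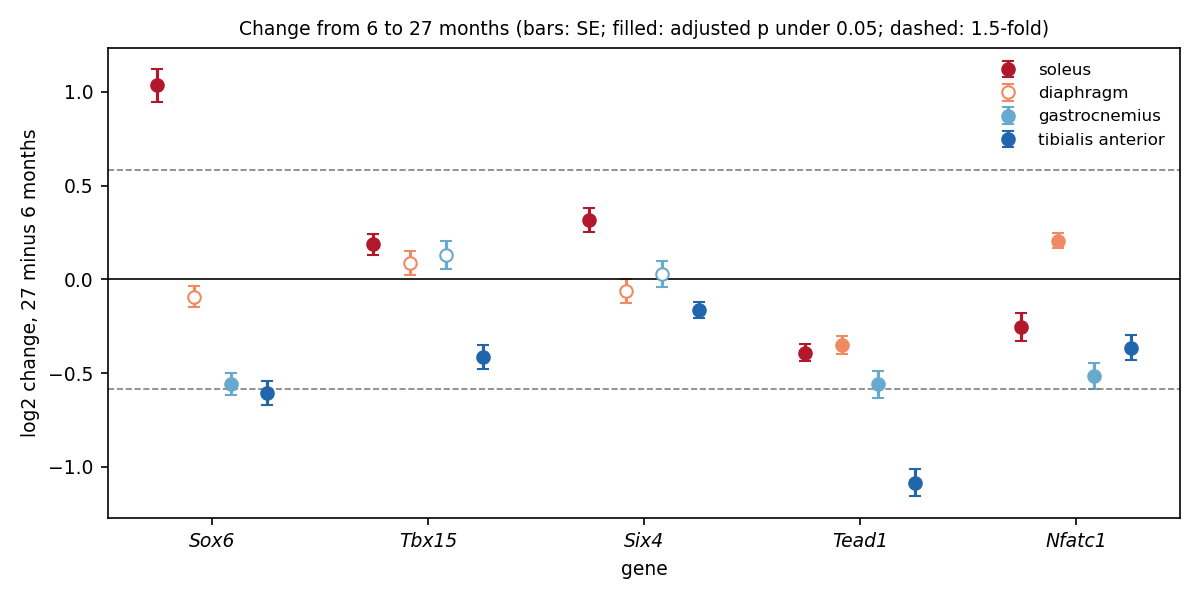
Log2 change from 6 to 27 months for each factor and muscle from limma-voom, with SE bars, filled where adjusted p was under 0.05, and dashed lines at a 1.5-fold change. Sox6 in the soleus (1.03) and Tead1 in the tibialis anterior (-1.08) are the points farthest from 0.

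Nfatc1 fell in the 3 hind limb muscles and rose in the diaphragm. In the gastrocnemius it went from 133 to 205 CPM (median 164) to 101 to 142 (median 114), a fall of 0.52 (SE 0.07, adjusted p = 1.17e-09) that was -0.23 with total-count scaling (adjusted p = 0.000524). The tibialis anterior went from a median of 159 to 121 CPM (-0.36, adjusted p = 1.48e-06) and the soleus from 179 to 138 (-0.25, adjusted p = 0.00367), but with total-count scaling these were -0.05 and -0.11 and did not pass the test (adjusted p = 0.354 and 0.168). In the diaphragm the median rose from 125 to 153 CPM (0.21, SE 0.04, adjusted p = 3.39e-05), with 10 of 12 old libraries above every young one. Groups overlapped in each muscle, and no change reached 1.5-fold.

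The course of Nfatc1 was not one-way in soleus, tibialis anterior or diaphragm. In the soleus it was higher at 18 months by 0.27 (adjusted p = 0.00488) and in the tibialis anterior by 0.20 (adjusted p = 0.0174). With TMM scaling a late fall followed, with curve midpoints at 24.0 and 23.5 months. With total-count scaling no trend was classed in the tibialis anterior, while the soleus kept its late fall. Nfatc1 in the diaphragm was higher at 18 months by 0.17 (adjusted p = 0.00286). At 21 and 24 months the diaphragm changes of 0.08 and 0.04 did not pass (adjusted p = 0.222 and 0.589). No trend was classed in the diaphragm with TMM scaling, and a linear rise was classed with total-count scaling. Soleus libraries at 27 months were spread widely, from 97.0 to 223 CPM, with an SD of 0.32 on the log2 scale against 0.17 at 6 months. The change in the diaphragm exceeded that in the gastrocnemius by 0.77 (adjusted p = 8.39e-13) and that in the tibialis anterior by 0.62 (adjusted p = 1.56e-09). The diaphragm was the lowest of the 4 at 6 months with TMM scaling but not with total-count scaling, under which it was above the tibialis anterior by 0.12 (adjusted p = 0.0312). It had the highest mean at 27 months, where it was above the gastrocnemius by 0.34 and the tibialis anterior by 0.30 but not separated from the soleus (soleus minus diaphragm -0.05, 95% interval -0.18 to 0.08, and 0.08 with total-count scaling).

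Six4 and Tbx15 rose in the soleus and fell in the tibialis anterior, by less than 1.5-fold each. Soleus Six4 was at 185 to 259 CPM with a median of 213 at 27 months, up by 0.32 (SE 0.06, adjusted p = 2.17e-05) and with 8 of 12 libraries above every young one. Tibialis anterior Six4 fell by 0.16 (adjusted p = 0.000307), a change that turned to a gain of 0.16 with total-count scaling. The 4 muscles met in Six4 at 27 months, with medians of 212 to 234 CPM, and none of the 6 muscle pairs passed the test in limma-voom, against a difference of 0.55 between soleus and tibialis anterior at 6 months. With total-count scaling the soleus was instead above the tibialis anterior by 0.16 at 27 months (adjusted p = 0.0227). Diaphragm and gastrocnemius Six4 changed by -0.06 and 0.03 at 27 months and did not pass the test (adjusted p = 0.463 and 0.716), though the gastrocnemius gained 0.31 (adjusted p = 0.00116) with total-count scaling. Before that, diaphragm Six4 was higher at 21 months by 0.22 (adjusted p = 0.0201 in limma-voom). The gastrocnemius median of Six4 was 214 CPM at 6 months, 248 at 24 months and 212 at 27 months.

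Tbx15 in the tibialis anterior went from a median of 89.2 to 65.3 CPM (-0.42, SE 0.06, adjusted p = 1.85e-08), with 9 of 12 old libraries below every young one, but it changed by -0.09 and did not pass with total-count scaling (adjusted p = 0.0671). In the soleus it rose by 0.19 (adjusted p = 0.00366), and its 27-month range was 33.5 to 44.5 CPM. The soleus change exceeded that of the tibialis anterior by 0.60 (SE 0.09, adjusted p = 2.05e-09), which was 0.58 and under 1.5-fold with RLE size factors and in edgeR. Diaphragm and gastrocnemius changed by 0.09 and 0.13 and did not pass the test, the latter being 0.41 with total-count scaling. The tibialis anterior, highest in Tbx15 up to 24 months, no longer differed from the diaphragm or gastrocnemius at 27 months (log2 differences 0.06 and 0.13 in favour of these, adjusted p = 0.398 and 0.0891), whereas the soleus was below each of them (-0.82 against the tibialis anterior, the smallest of these differences).

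Counted over the 5 factors, 1 was called at 27 against 6 months in the soleus (Sox6, higher), where 15.0% of all genes were called, and 2 in the tibialis anterior (Sox6 and Tead1, lower), where 27.6% were. In the gastrocnemius 0 were called in limma-voom, edgeR and DESeq2 (22.8% of all genes) while 3 passed an unadjusted p under 0.05, and in the diaphragm 0 by the same tools (7.52%) while 2 passed. Median log2 changes over the factors were 0.19, -0.06, -0.52 and -0.42 in soleus, diaphragm, gastrocnemius and tibialis anterior, beside 0.02, 0.00, 0.04 and 0.02 over all genes. Old and young libraries did not overlap for 2 factors in the soleus (5.64% of all genes), 0 in the diaphragm (2.85%), 1 in the gastrocnemius (14.1%) and 2 in the tibialis anterior (20.2%). Of 20 pairs of factor and muscle, 15 passed an adjusted p under 0.05 at 27 months, beside 58.7% of all genes pooled over the muscles. At 24 months 12 passed (38.7% of all genes), at 21 months 8 (16.9%) and at 18 months 5 (24.5%). In limma-voom, edgeR and DESeq2 0 passed at 9 months (0.328% of all genes) and 0 at 12 months (2.26%), while 3 and 4 had an unadjusted p under 0.05 at these ages. Of 30 tests that set the age change of a factor in 1 muscle against that in another, 8 were called, with 15.2% of all genes pooled over the muscle pairs.

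The relatives and cofactors of these factors were taken from lists by family. Vgll2, a muscle cofactor of Tead factors, went with the slow muscle at 6 months, with a median of 305 CPM in the soleus against 136 in the tibialis anterior. At 27 months the changes were -0.94 in the soleus (adjusted p = 1.45e-10), -0.90 in the gastrocnemius and -0.62 in the tibialis anterior, all called, and Vgll2 had risen by 0.28 in the diaphragm (adjusted p = 0.0018). In the tibialis anterior the change was -0.29 and no longer called with total-count scaling (adjusted p = 0.000663). Wwtr1 and Vgll4, other Tead cofactors, were lower in the soleus than in the other muscles at 6 months, with log2 differences of -1.01 to -0.70 and -1.44 to -0.78. With total-count scaling the Wwtr1 difference between soleus and tibialis anterior was -0.47 and under 1.5-fold (adjusted p = 9.6e-08). Of 6 measured Tead relatives and cofactors, Vgll2 was the one called with age in limma-voom with TMM scaling, in the 3 hind limb muscles. Shares of all genes called in either direction were 15.0%, 22.8% and 27.6% in soleus, gastrocnemius and tibialis anterior. At 27 months Wwtr1 fell by 0.36 in the diaphragm (adjusted p = 7.23e-08) and rose by 0.37 in the tibialis anterior. With total-count scaling this rise was 0.69 and called (adjusted p = 4.38e-13).

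Around Nfatc1, the calcineurin subunit gene Ppp3cc fell by 1.04 on the log2 scale in old tibialis anterior muscle (adjusted p = 3.87e-21) and fell by 0.82 in the gastrocnemius, the latter being -0.54 and under 1.5-fold with total-count scaling. Rcan1, a calcineurin regulator, was 4.83-fold above the tibialis anterior in the soleus at 6 months by the fit. Over age Rcan1 rose by 1.18 (adjusted p = 2.43e-12) in the tibialis anterior and fell by 0.63 (adjusted p = 0.00738) in the soleus, a change that was -0.43 without the 27-month replicate 8 and -0.46 in edgeR and DESeq2, under 1.5-fold in each. In the gastrocnemius it rose by 0.57 (adjusted p = 0.00567), just under 1.5-fold, and it was called there in edgeR (0.66), in DESeq2 (0.65), with total-count scaling (0.86) and with quality weights (0.72). It was also called without the 27-month replicate 1, 6, 7, 9 or 10 or the 6-month replicate 3 or 9 (0.60 to 0.66). In the diaphragm it fell by 0.51 (adjusted p = 0.00479), and this was called in edgeR (-0.62) and DESeq2 (-0.61). Of 9 NFAT and calcineurin genes, 7 passed as lower in the soleus, 8 in the diaphragm, 6 in the gastrocnemius and 7 in the tibialis anterior, beside 26.4%, 24.7%, 28.9% and 36.5% of all genes. Called lower were 2, 0, 1 and 3 of them in the same order, beside 15.0%, 7.52%, 22.8% and 27.6% of all genes called in either direction.

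Hdac4, the class IIa deacetylase that holds Mef2 factors silent and is known to rise in denervated muscle, was called higher at 27 months in the 4 muscles. Its medians went from 33.6 to 171 CPM in the soleus, 31.6 to 52.6 in the diaphragm, 55.2 to 222 in the gastrocnemius and 49.3 to 335 in the tibialis anterior, log2 changes of 2.25, 1.00, 1.98 and 2.64. Of the 5 or 6 measured Mef2 relatives and class IIa deacetylases, Hdac9 in the tibialis anterior was the only other one called, as lower. Shares of all genes called in either direction were 15.0%, 7.52%, 22.8% and 27.6% in soleus, diaphragm, gastrocnemius and tibialis anterior. The list medians were 0.00, 0.03, -0.13 and -0.05 in the same order. In the family of Tbx15, Tbx1 was lower and Tbx18 higher in the soleus than in the tibialis anterior at 6 months (log2 differences -4.01 and 1.20), and neither was called with age in any muscle. Of 4 measured SoxD and T-box relatives, 1, 1, 2 and 3 passed as lower in soleus, diaphragm, gastrocnemius and tibialis anterior, and 0 were called in limma-voom. The shares of all genes that passed as lower were those given for the NFAT genes. In the tibialis anterior Tbx1 and Tbx18, at -0.15 and -0.32, turned to 0.17 and 0.0018 with total-count scaling.

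**Figure D5:**
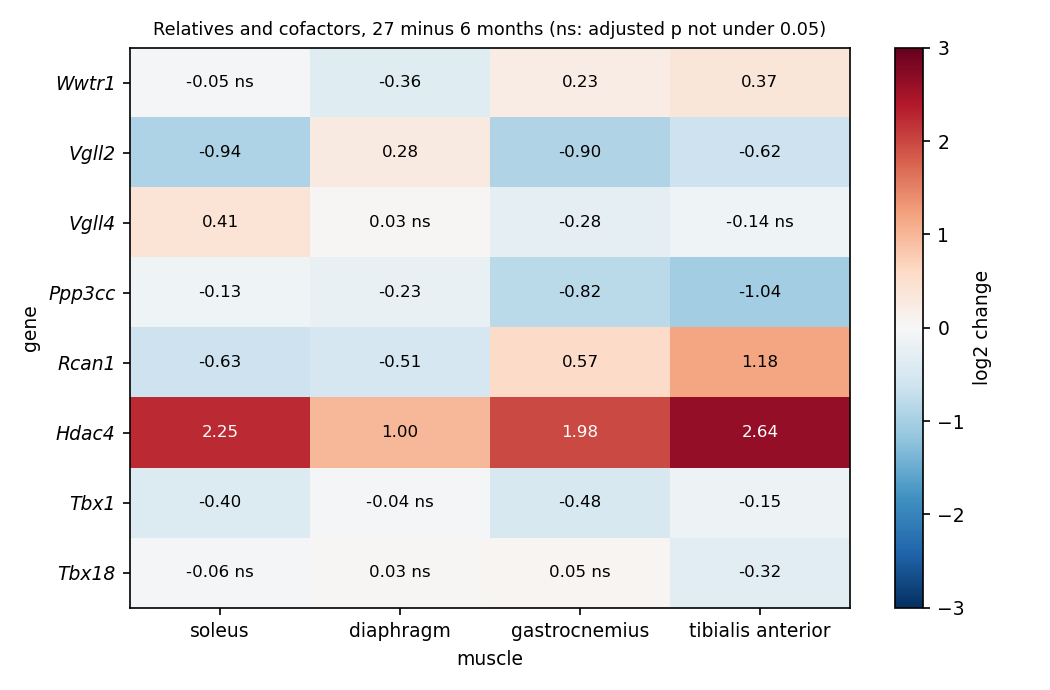
Log2 change from 6 to 27 months of 8 relatives and cofactors of the factors in each muscle, coloured from -3 to 3, with values printed and "ns" where adjusted p was not under 0.05. Hdac4 is higher in the 4 muscles (1.00 to 2.64), and Ppp3cc is lowest in the tibialis anterior (-1.04).

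Over the 28 group means, the genes nearest to each factor were found among 10402 genes by Pearson's r, as a description of pattern only. Nearest to Sox6 were Gpt2 (an alanine aminotransferase, r = 0.994), Myh4 (0.994) and Tpm1 (a tropomyosin, 0.991), and its r with Myh7 was -0.84. Tbx15 was nearest to Lyrm9, Slc22a5 and Cyp4f18 (0.979, 0.978 and 0.977), with 0.97 for Myh4. The nearest genes to Six4 were Kif16b, Aqr and Gphn (0.927, 0.915 and 0.902), to Tead1 Sar1a, Nudt3 and Svil (0.944, 0.909 and 0.905), and to Nfatc1 Tbrg4, Rnf114 and Yars (0.946, 0.933 and 0.927). Six4 had an r of 0.80 with Myh4 and -0.77 with Myh7. For Tead1 these were 0.12 and -0.05, and for Nfatc1 -0.49 and 0.41. Neither Tead1 nor Nfatc1 followed Myh4 or Myh7 across the groups as closely as Sox6 and Tbx15 did.

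Other markers moved with age beside these results. All 7 denervation genes were called higher at 27 months in each muscle. Of all genes 15.0%, 7.52%, 22.8% and 27.6% were called in either direction in soleus, diaphragm, gastrocnemius and tibialis anterior. These shares also stand beside the marker calls below. The summed median of the denervation genes went from 217 to 961 CPM in the soleus, 94.9 to 193 in the diaphragm, 85.5 to 1031 in the gastrocnemius and 60.8 to 1562 in the tibialis anterior. Macrophage markers passed as higher for 7 of 7 genes in the 3 hind limb muscles and for 4 in the diaphragm, beside 27.4%, 20.3%, 33.2% and 37.7% of all genes in soleus, diaphragm, gastrocnemius and tibialis anterior, with the sum in the tibialis anterior at 41.6 to 65.1 CPM at 6 months and 89.9 to 187 at 27 months. Adipocyte markers were called higher for 4 of 5 genes in each hind limb muscle and satellite cell markers for 3 of 6 in the soleus, 1 in the diaphragm, 2 in the gastrocnemius and 2 in the tibialis anterior, where Cdh15 was called lower. T cell markers were called higher for 3 of 5 tested in the soleus, with Cd5 called lower, 3 of 7 in the diaphragm, 4 of 5 in the gastrocnemius and 5 of 5 in the tibialis anterior. Endothelial sums were 0.703 to 0.847 times, and fibroblast sums 0.544 to 0.855 times, their 6-month median. Fibroblast markers did not move as one, since in the 3 hind limb muscles 3 of 7 passed as higher and 1 (soleus) or 2 as lower, with list medians of 0.17, 0.10 and 0.08 in soleus, gastrocnemius and tibialis anterior, whereas in the diaphragm 0 passed as higher and 6 as lower (-0.55). Sums of smooth muscle markers were 0.732 to 1.24 times and of Schwann cell markers 0.831 to 1.42 times that median, and B cell markers were under 1 CPM in the median of each muscle. No listed marker was at 0 in every library of a 6-month or 27-month group. The part of other cells in the changes of the 5 factors was not tested.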

How the data were processed

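RNA from soleus, diaphragm, gastrocnemius and tibialis anterior of rats was sequenced. The authors stored tissue in RNAlater, made strand-specific libraries after removal of ribosomal RNA, and aligned and counted reads in ArrayStudio (version not given in the sources used here) on the older rat reference B6.0 with a RefSeq-based gene model. The deposited values are raw counts per gene, not normalized. Library depth was 17.6 M to 85.3 M counts, and samples were grouped by the muscle and age in their titles.

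Counts were scaled by TMM and filtered with filterByExpr (minimum count 10, minimum total 15). A limma-voom model per muscle gave the contrast of every later age with 6 months. Muscles at 6 and 27 months, and differences between their changes, were compared in a joint fit. Tests were two-sided, with Benjamini-Hochberg adjustment over all genes, and "called" means adjusted p under 0.05 and over 1.5-fold. Levels are CPM, or log2 CPM with a prior count of 0.5. Trends over age were classed by BIC (over 6 for a trend, over 2 for a logistic curve, late after 21 months). R 4.3.3, limma 3.58.1, edgeR 4.0.16 and DESeq2 1.42.0 were used, and the fits were tested on simulated data.

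Alternatives were RLE size factors, total-count scaling, edgeR, DESeq2 for age, no filter, Bonferroni adjustment, quality weights, a replicate block, each replicate left out, other thresholds and the fits without libraries of the third number series. Named were the 5 measured factors, the 3 genes nearest in pattern to each, relatives called in the same direction in at least 2 muscles or between the soleus and each other muscle, and Myh7 and Myh4. Factors and lists were chosen with earlier results of these data known. Genes named outside this rule, such as Chrnd and Hdac9, were chosen after their values were seen. An item that met the naming rule, and the counts of its list, are not reported here.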

Additional observations from a re-analysis of the deposited data

Results flagged for a closer look

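Of 30 tests that set the age change of a factor in 1 muscle against that in another, 8 were called in limma-voom. Among 15 pairs of a factor and a group of 10 or fewer libraries, 0 held a library far from the others. Those groups were the gastrocnemius at 6, 21 and 24 months, and larger groups were not checked. For Sox6 the soleus change exceeded that of the diaphragm by 1.07 on the log2 scale, that of the gastrocnemius by 1.58 and that of the tibialis anterior by 1.63. For Tbx15 the soleus exceeded the tibialis anterior by 0.60. For Tead1 the tibialis anterior fell further than the soleus, whose change was higher by 0.69, and than the diaphragm, whose change was higher by 0.78. For Nfatc1 the diaphragm exceeded the gastrocnemius by 0.77 and the tibialis anterior by 0.62.

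With total-count scaling the 3 differences in Sox6 stayed called, at 1.23, 1.45 and 1.46. The other 5 kept their direction and an adjusted p under 0.05 but lay under 1.5-fold, at 0.43 for Tbx15, 0.52 and 0.45 for Tead1, and 0.48 and 0.29 for Nfatc1.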

How the results depend on the processing

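Total-count scaling raised the median change of all genes by 0.145 in the soleus, 0.041 in the diaphragm, 0.278 in the gastrocnemius and 0.322 in the tibialis anterior, and the cause was not tested. Under it, these results turned direction. At 27 against 6 months in the tibialis anterior, Six4 became 0.16, Vgll4 0.19, Tbx1 0.17 and Tbx18 0.0018, the Six4 slope became 0.00924 log2 units a month, and Ppp3cc in the soleus became 0.0176. Between muscles, Six4 became 0.14 for soleus minus gastrocnemius at 6 months, 0.23 for diaphragm minus tibialis anterior at 6 months and 0.16 for soleus minus tibialis anterior at 27 months. Tbx15 became 0.37 for diaphragm minus gastrocnemius at 6 months, with -0.29 for the difference of their changes. Tead1 became 0.21 and 0.24 for soleus minus gastrocnemius at 6 and 27 months, 0.16 for soleus minus tibialis anterior at 6 months and -0.0343 for the change in diaphragm minus gastrocnemius. Nfatc1 became 0.0047 and 0.12 for the diaphragm minus gastrocnemius and minus tibialis anterior at 6 months.

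With no fold threshold, 5, 2, 3 and 5 factors passed at 27 months in soleus, diaphragm, gastrocnemius and tibialis anterior. Between muscles at 6 months 5, 4, 5, 3, 5 and 3 passed in the order soleus against diaphragm, gastrocnemius and tibialis anterior, diaphragm against gastrocnemius and tibialis anterior, and gastrocnemius against tibialis anterior. For the differences of changes, in the same order, 3, 3, 4, 3, 4 and 2 passed. With a 2-fold threshold 1 was called at 27 months in the tibialis anterior, 1 for soleus against diaphragm and 1 against gastrocnemius at 6 months, and for the differences of changes 1 for soleus and tibialis anterior, 0 for diaphragm and gastrocnemius and 0 for diaphragm and tibialis anterior. Total-count scaling gave 1 in the tibialis anterior at 27 months and 1, 0 and 0 for those same differences of changes. Quality weights gave 1 in the gastrocnemius. With each replicate left out in turn, 0 to 2 were called in the gastrocnemius and 1 to 2 in the tibialis anterior. RLE size factors, edgeR, DESeq2, no filter and Bonferroni adjustment moved none of these counts by over 1.5 times.

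Libraries of different muscles with the same number correlated, in their deviations from the group means, with a median of 0.03 to 0.20 and a lowest value of -0.62, against -0.03 to -0.01 for other numbers. A library matched its own number best in 13 of 72 (diaphragm and gastrocnemius) to 43 of 84 (soleus and tibialis anterior) cases. This is a hint in the data of partial pairing, but not every pair correlated above 0.1 and the labels do not say what a number marks, so the numbers were not taken as pairs. In the fits of 1 muscle the replicate block joined libraries of the same number at different ages, so it cannot test pairing between muscles. With it Sox6 changed by 1.03 (soleus) and -0.61 (tibialis anterior), and Rcan1 in the gastrocnemius by 0.60, which was called. In the joint fit the block was age and number together. No count of factors called was moved in either kind of fit.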
